A study of Mus musculus with 12 samples.

Results

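The genes that encode voltage-gated sodium channels and voltage-gated calcium channels were followed across 12 RNA sequencing libraries of sorted mouse pontine nucleus neurons. Members were all genes whose symbol in the deposited table named a sodium channel α or β subunit or a calcium channel α1, α2δ, β or γ subunit, which gave 39 of 23079 genes. Of these, 13 were sodium channel genes and 26 were calcium channel genes. Scn2a, a major sodium channel gene of the brain, is listed in the table under its older symbol Scn2a1, fell outside that pattern and is given beside the members as a partner gene.

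The pontine nuclei relay signals of the cerebral cortex to the cerebellum. Their neurons were genetically labelled in CD-1 mice at E18.5, dissected and sorted at 2000 cells per replicate. Hoxa5tdTomato (n = 3) has table columns that name a Hoxa5 cre, and Math1Hoxa5-IRES-GFP (n = 3) has columns that name Math1 and a Cag lsl Hoxa5 allele. Math1tdTomato (n = 6) is the reference of the series, and its columns fall into 3 that name creErt2 and 3 that name tdT. The genotypes are known only from these names. A sorted label leaves whichever cells carried it, and nothing in the sources used here says whether the replicates came from separate embryos, so p values measure the spread between these libraries.

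Voltage-gated sodium channels open within a fraction of a millisecond of depolarisation and carry the upstroke of the action potential. Each has 1 pore-forming α subunit, and β subunits with a single membrane span alter its gating and surface level. Calcium channels let calcium into the cell on depolarisation and so couple firing to transmitter release, gene transcription and rhythmic firing. Their pore is the α1 subunit, of which the Cav1 family carries L-type, the Cav2 family P/Q-, N- and R-type and the Cav3 family low-threshold T-type current, while α2δ and β subunits bring Cav1 and Cav2 channels to the membrane. Several Cacng genes encode proteins best known for the trafficking of AMPA-type glutamate receptors.

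Library totals ran from 9973484 to 13302076 counts in the Hoxa5tdTomato libraries and the creErt2 references, and from 22355961 to 29820776 counts in the Math1Hoxa5-IRES-GFP libraries and the tdT references. These are called set 1 and set 2. No source states which references belong with which group, so the sets rest on column names, and depth and set cannot be told apart. Hoxa5, the targeted gene, stood at 127, 222 and 119 CPM (counts scaled to the library's TMM-adjusted size) in Hoxa5tdTomato, above the 8.79, 8.62 and 23.1 CPM of the creErt2 references. In the libraries labelled Math1Hoxa5-IRES-GFP it stood at 9.73, 16.8 and 82.0 CPM, against 8.06, 4.35 and 32.2 CPM in the tdT references, and the ranges overlap, so its count does not check that label. Replicates 1 to 3 of Math1Hoxa5-IRES-GFP correlated with their own group at a lowest r of 0.888, 0.881 and 0.881 across genes. The libraries of the other groups did so at 0.947 or more. Replicate 3 of Math1Hoxa5-IRES-GFP had the fewest genes with a count (13074). Of the defining markers of pontine neurons, Slc17a6, the vesicular glutamate transporter of these cells, ran from 285.6 to 506 CPM over the 12 libraries and Barhl1 from 105 to 345 CPM, whereas Slc17a7 lay at or under 1.08 CPM. The 11 defining markers summed to 4600 to 5126 CPM in Hoxa5tdTomato and to 6362 to 9324 CPM in Math1Hoxa5-IRES-GFP, against 6721 to 9220 CPM in the 6 references, so every Hoxa5tdTomato library lay below the other 9. Of the 10 tested, 2 were lower in Hoxa5tdTomato than in all references (edgeR, p-values adjusted over all genes) and 0 higher. These were Nfib, a transcription factor, at 2764 to 3440 CPM against 4677 to 6289 CPM (adjusted p = 0.00594), and Robo3, an axon guidance receptor, at 51.9 to 74.3 CPM against 105 to 556.5 CPM (adjusted p = 0.0393). Against the creErt2 references alone Nfib passed (adjusted p = 0.0223) and Robo3 did not (adjusted p = 0.287), and the call of Nfib against all references was lost without Hoxa5tdTomato 1 or 2 (adjusted p up to 0.0779) and that of Robo3 without any 1 Hoxa5tdTomato library or tdT reference (adjusted p up to 0.234). Fits without 1 Hoxa5tdTomato library called only 36 to 52 genes in all, against 255 with every library. Summed endothelial markers (12 genes) ran from 87.9 to 171 CPM in Hoxa5tdTomato and from 0.201 to 45.02 CPM in Math1Hoxa5-IRES-GFP, against 0.749 to 23.3 CPM in the 6 references. Summed pericyte and smooth muscle markers (10 genes) ran from 116 to 223 CPM and from 2.86 to 57.9 CPM in these groups, against 2.46 to 24.7 CPM in the references. Meningeal markers (8 genes) ran from 39.1 to 79.3 CPM and from 1.68 to 36.0 CPM, against 1.46 to 13.9 CPM, with Slc6a13 at 0 in every library. The part of these markers, pontine ones included, in the channel results was not tested, and in bulk samples fewer cells of a type and less RNA per cell cannot be told apart.

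The first result is which channels these neurons transcribed. Levels between genes are given per length as RPKM, CPM per kilobase of the deposited gene length, averaged over the 12 libraries with their SD. In all, 25 members stood at 1 RPKM or more, 15 at 10 RPKM or more and 5 at 30 RPKM or more, led by Scn3b at 64.3 ± 17.6 RPKM. The others among these 5 were Cacnb3 at 45.4 ± 18.4, Cacna2d1 at 44.5 ± 12.0, Cacna1e at 37.2 ± 10.2 and Cacng7 at 32.9 ± 14.9 RPKM (SD, n = 12). At the other end, Scn4a, the skeletal muscle sodium channel, Scn10a, a sodium channel of sensory neurons, and Scn4b had no count in any library, which allows up to 0.0145 CPM each over the 212487592 counts of the table. That limit covers counting error only.

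**Figure D1:**
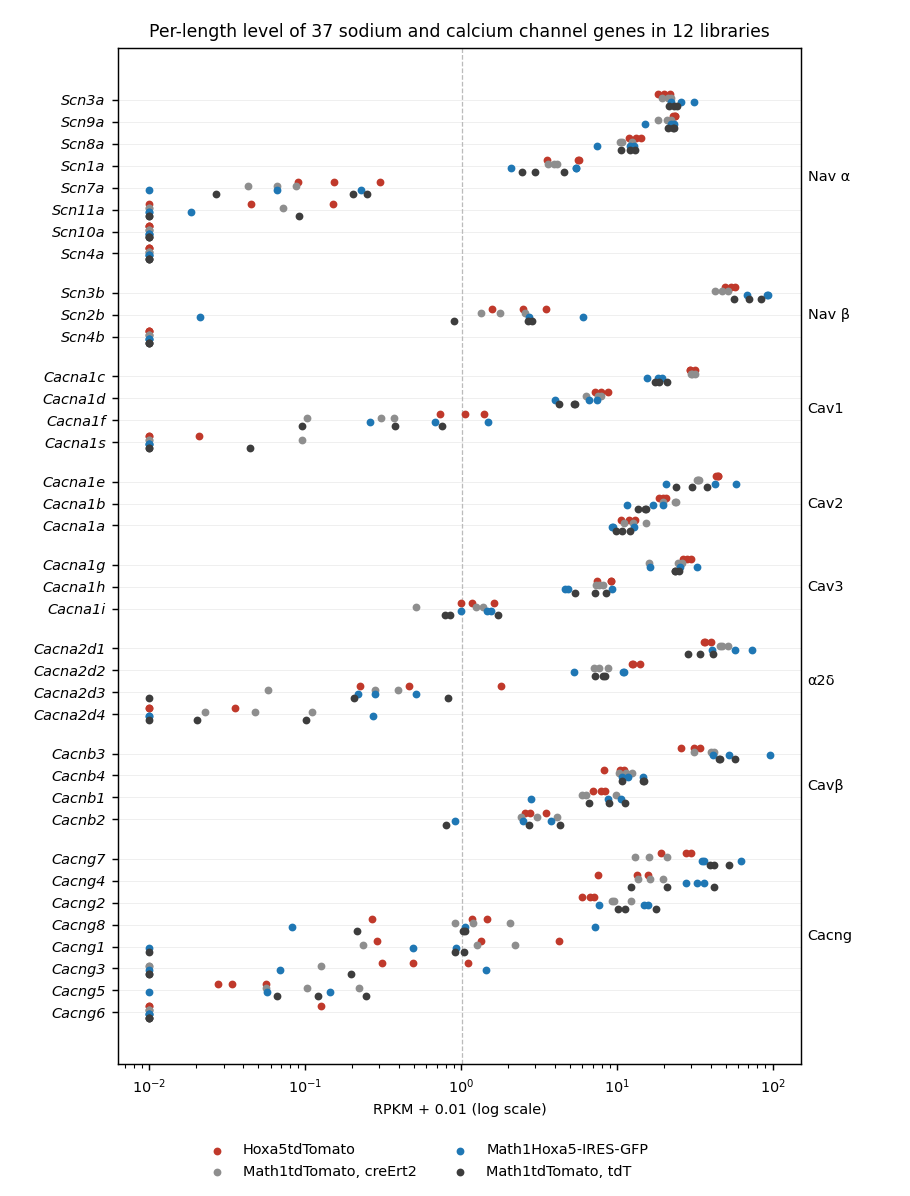
Levels of 37 members in each of the 12 libraries, in RPKM plus 0.01 on a log axis, with members ordered by mean within each subunit class and 1 point per library coloured by column-name group. Scn3b, Cacnb3, Cacna2d1, Cacna1e and Cacng7 had the highest means, and the points at the left edge are libraries with no count. The dashed line marks 1 RPKM.

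Among sodium channel α genes, Scn3a, the isoform known for high embryonic levels, stood at 22.7 ± 3.42 RPKM and Scn9a, best known from pain-sensing neurons, at 21.7 ± 2.52 RPKM. Scn3a was the higher of the pair in 7 of 12 libraries, so their order does not hold beyond the spread. Scn8a, which carries much of the current at the axon initial segment of mature neurons, followed at 11.8 ± 1.78 RPKM, and Scn1a, prominent in mature inhibitory neurons, at 4.14 ± 1.26 RPKM. Each step from Scn9a to Scn8a, Scn1a and Scn7a was in the same order in 12 of 12 libraries, with no overlap of their ranges. Scn7a and Scn11a lay below 1 RPKM, at 0.117 and 0.0273 RPKM. Scn2a1 stood above every member of the class on average at 31.4 RPKM, and with it included Scn2a1 made up 34.1% of the summed sodium α level, Scn3a 24.9%, Scn9a 23.6%, Scn8a 12.8% and Scn1a 4.43%.

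Scn3a was at 20.2, 18.4 and 22.0 RPKM in Hoxa5tdTomato, against 19.6, 21.3 and 22.2 RPKM in the creErt2 references. It was at 22.3, 31.5 and 25.9 RPKM in Math1Hoxa5-IRES-GFP, against 23.2, 24.2 and 21.7 RPKM in the tdT references. Both pairs of ranges overlap. The within-set log2 fold change of Scn3a was -0.06 with a 95% interval from -0.37 to 0.25 for Hoxa5tdTomato, and 0.21 with an interval from -0.10 to 0.51 for Math1Hoxa5-IRES-GFP.

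The β subunits came down to 1 gene. Scn3b, whose product binds the α subunit without a covalent bond, made up 95.99% of the summed sodium β level over the 12 libraries, and Scn2b 3.65% at 2.37 ± 1.51 RPKM.

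Among the calcium channel α1 genes, Cacna1e, the R-type pore, made up 27.9% of the summed level, Cacna1g, a T-type pore, 19.2%, Cacna1c, the main neuronal L-type pore, 18.4% and Cacna1b, the N-type pore, 13.8%, as means over the 12 libraries. As group means, the order of Cacna1g and Cacna1c differed by set, and every reference library kept the order of its set. It was reversed in Hoxa5tdTomato 1, with Cacna1g at 30.1 and Cacna1c at 29.4 RPKM. In Math1Hoxa5-IRES-GFP 2 it was reversed too, at 16.3 and 18.4 RPKM. The mean share of Cacna1c lay above that of Cacna1g in Hoxa5tdTomato (19.7% and 18.54%) and the creErt2 references (22.3% and 16.1%), and below it in Math1Hoxa5-IRES-GFP (14.6% and 20.95%) and the tdT references (17.0% and 21.4%). In Hoxa5tdTomato and Math1Hoxa5-IRES-GFP the difference was less than the larger SD. Cacna1a, the P/Q-type pore that dominates transmitter release at many mature synapses, made up 8.83%. By family, Cav2 held 50.5%, Cav3 25.7% and Cav1 23.8% of the level. Within the Cav1 family Cacna1c stood at 24.5 ± 6.39 RPKM, Cacna1d at 6.56 ± 1.54, Cacna1f, the retinal isoform, at 0.62 ± 0.47 and Cacna1s, the skeletal muscle isoform, at 0.0108 ± 0.0255 RPKM, in that order in 12 of 12 libraries for each step. Within the Cav3 family the order was Cacna1g (24.97 ± 4.89 RPKM), Cacna1h (7.42 ± 1.66 RPKM) and Cacna1i (1.19 ± 0.376 RPKM), again in 12 of 12 libraries. Within the Cav2 family Cacna1e lay above Cacna1b and Cacna1b above Cacna1a in 12 of 12 libraries.

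Cacna1g was at 30.1, 28.3 and 26.8 RPKM in Hoxa5tdTomato, against 16.1, 26.4 and 24.8 RPKM in the creErt2 references, and those ranges do not overlap. It was at 25.3, 16.3 and 32.8 RPKM in Math1Hoxa5-IRES-GFP, against 23.7, 23.8 and 25.3 RPKM in the tdT references, and those ranges overlap. Against all 6 references neither group passed the test, with a log2 fold change of 0.28 (adjusted p = 0.564) in Hoxa5tdTomato and 0.09 (adjusted p = 0.858) in Math1Hoxa5-IRES-GFP.

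The auxiliary subunits of the calcium channels were as uneven. Cacna2d1, an α2δ subunit and the binding site of gabapentin, held 80.9% of the α2δ level and Cacna2d2 18.1%, while Cacna2d3 stood at 0.432 and Cacna2d4 at 0.0452 RPKM. Cacnb3 held 65.3% of the calcium channel β level, Cacnb4 18.3%, Cacnb1 11.9% and Cacnb2 4.46%. Of the Cacng genes, Cacng7, Cacng4 and Cacng2 (stargazin, an AMPA receptor auxiliary subunit) held 47.6%, 31.1% and 16.6%. Cacng7 was above Cacng4 in 10 of 12 libraries, by less than the larger SD. Cacng1 and Cacng6, the γ subunits known from muscle calcium channels, lay at 1.08 ± 1.19 and 0.00974 ± 0.0337 RPKM.

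**Figure D2:**
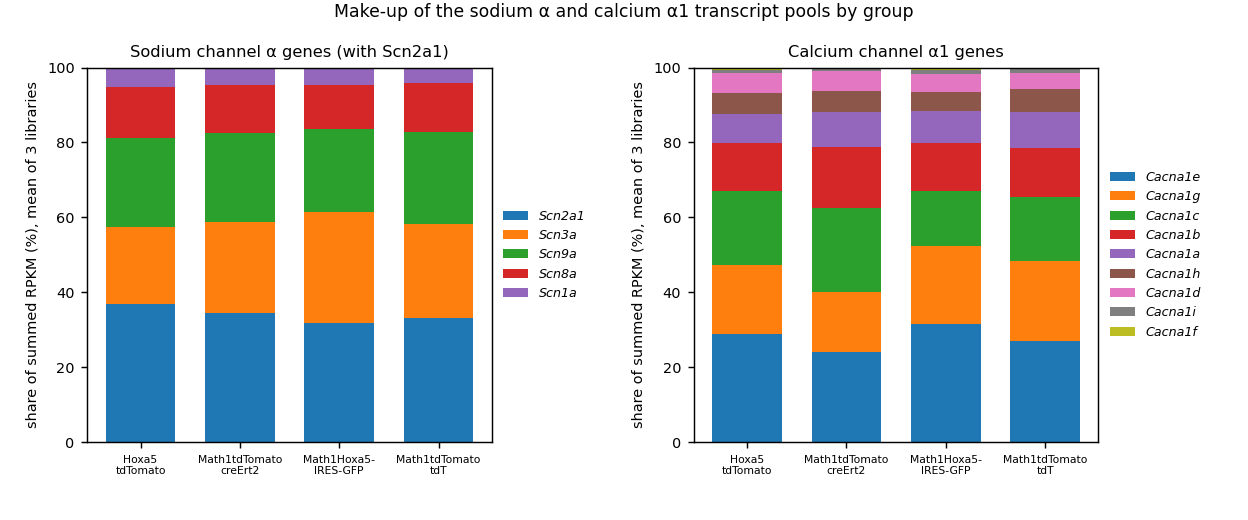
Make-up of the sodium α level (left, with Scn2a1) and the calcium α1 level (right) as percent of the summed RPKM, mean of 3 libraries for each column-name group, with genes of minor share not drawn. Scn2a1 had the highest mean share on the left and Cacna1e on the right in all 4 groups. In single Math1Hoxa5-IRES-GFP libraries, Scn3a lay above Scn2a1 in replicates 2 and 3 and Cacna1g above Cacna1e in replicate 3.

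Members that lie side by side in the genome differed widely in level. On chromosome 2 (GRCm38.p6), Scn3a, Scn2a1, Scn1a, Scn9a and Scn7a follow each other, and Scn9a at 21.7 RPKM lies 38.3 kb from Scn7a at 0.117 RPKM. On chromosome 9, Scn10a and Scn11a adjoin and had 0 and 0.0273 RPKM, while on the same chromosome Scn2b at 2.37 RPKM lies 8.6 kb from Scn4b, which had no count. On chromosome 7, Cacng7 at 32.9 RPKM, Cacng8 at 1.48 RPKM and Cacng6 at 0.00974 RPKM follow each other within gaps of 25.8 and 7.3 kb. On chromosome 11, Cacng4 at 21.6 RPKM lies between Cacng1 at 1.08 and Cacng5 at 0.0853 RPKM, and on chromosome 6, Cacna1c at 24.5 RPKM lies 39.1 kb from Cacna2d4 at 0.0452 RPKM.

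Promoter sequences are shown for Cacna1c, Cacnb3 and Cacna2d2, on which the comparisons turn, and for the neighbours Scn9a and Scn7a, which adjoin and differ in level. Each is the 250 bases before a start listed in the RefSeq promoter table of GRCm38.p6, read in the direction of the gene, with CG dinucleotides in capitals. A listed start need not be the end of the annotated gene. The stretches of Cacna1c and Cacnb3 lie inside the gene span, and those of Cacna2d2 and Scn9a do so in part. Cacna1c lies at chr6:119108496-119108745 on the minus strand with 48 CG. Cacnb3 lies at chr15:98634517-98634766 on the plus strand with 23 CG, and Cacna2d2 at chr9:107399630-107399879 on the plus strand with 34 CG. Scn9a lies at chr2:66634963-66635212 on the minus strand with 5 CG, and Scn7a at chr2:66784911-66785160 on the minus strand with 3 CG. Where a gene has several promoters, that with most CG is shown.
Cacna1c: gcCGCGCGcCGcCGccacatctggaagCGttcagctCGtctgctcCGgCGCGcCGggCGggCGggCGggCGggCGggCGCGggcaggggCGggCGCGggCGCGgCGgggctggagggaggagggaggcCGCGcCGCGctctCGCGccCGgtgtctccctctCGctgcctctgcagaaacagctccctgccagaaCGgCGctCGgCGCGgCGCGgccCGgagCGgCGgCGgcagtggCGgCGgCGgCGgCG
Cacnb3: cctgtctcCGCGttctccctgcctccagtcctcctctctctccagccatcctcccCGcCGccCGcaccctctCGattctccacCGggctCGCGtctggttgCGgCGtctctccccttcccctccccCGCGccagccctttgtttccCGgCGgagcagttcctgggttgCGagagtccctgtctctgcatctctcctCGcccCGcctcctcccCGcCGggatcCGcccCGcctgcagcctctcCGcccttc
Cacna2d2: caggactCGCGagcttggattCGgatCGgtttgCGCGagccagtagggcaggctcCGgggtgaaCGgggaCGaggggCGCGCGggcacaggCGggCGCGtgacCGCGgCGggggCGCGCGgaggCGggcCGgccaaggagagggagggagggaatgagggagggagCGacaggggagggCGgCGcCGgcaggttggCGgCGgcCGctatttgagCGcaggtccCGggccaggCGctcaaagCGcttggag
Scn9a: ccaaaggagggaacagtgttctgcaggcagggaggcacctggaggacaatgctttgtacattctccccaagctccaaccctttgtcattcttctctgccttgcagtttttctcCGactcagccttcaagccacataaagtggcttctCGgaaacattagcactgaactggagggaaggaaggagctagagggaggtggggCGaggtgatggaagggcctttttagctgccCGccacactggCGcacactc
Scn7a: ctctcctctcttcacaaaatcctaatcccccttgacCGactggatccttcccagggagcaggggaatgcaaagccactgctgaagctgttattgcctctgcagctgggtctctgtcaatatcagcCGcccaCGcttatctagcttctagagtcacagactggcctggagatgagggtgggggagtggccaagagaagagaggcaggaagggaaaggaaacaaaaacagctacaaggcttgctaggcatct
In that table, 29 of 39 members had a promoter. Of the members at 1 RPKM or more, 18 had one, with a median of 24.5 CG, and 10 of them (55.6%) held 20 or more. Of those below 1 RPKM, 11 had one, with a median of 8 CG, and 2 (18.2%) held 20 or more. Over all 27025 genes of the table the median was 6 CG and 19.7% of genes held 20 or more, and 92.1% of all promoters held at least 1 CG on either strand, since CG reads the same on both. Scn9a and Scn7a, 5 and 3 CG, are both low in CG while their levels differ, and Scn4b, with 23 CG, had no count. A relation of CG number to level over the members was not tested.

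The series design sets each labelled group against the 6 references. The test was edgeR's quasi-likelihood test on 14732 genes, with Benjamini-Hochberg adjustment over all of them and a threshold of 0.05. A log2 fold change is given with its standard error and is above 0 where the first of the named groups was higher. The 3-group fit sets each group against all 6 references, and the 4-group fit, called within-set, against the 3 references of its own set. Of the 39 members, 31 passed the filter on low counts. Those that did not included Cacna1s, Cacng5, Cacng6, Scn10a, Scn11a, Scn4a and Scn4b.

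In Hoxa5tdTomato against Math1tdTomato, 0 of the 31 tested channel genes passed the test in the 3-group fit, where 1.73% of all tested genes did (0.842% higher, 0.889% lower). At an unadjusted p under 0.05, 3 were higher and 2 lower, 16.1% of the tested members beside 14.6% of all genes. The DESeq2 Wald test called 1 member, Cacna2d2, where it called 601 of all 14732 genes. The median log2 fold change of the tested members was 0.12, beside 0.00 over all genes tested. Against the creErt2 references alone (within set 1, 0.557% of all genes called, 0.292% higher and 0.265% lower) 0 members passed, and 2 were higher and 0 lower at an unadjusted p under 0.05, where 8.91% of all genes passed.

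The ranges nonetheless separated for some members. In CPM, all 3 Hoxa5tdTomato libraries lay above all 6 references for 4 members, Cacna1e, Cacna1g, Cacna2d2 and Cacng3 (7.15% of all tested genes did so), and below all 6 for 1 member, Cacng2 (6.93% did so). The first count is above and the second below its background, and with so few members neither is read as a result about the channels. Against the creErt2 references alone 7 members lay above and 2 below (12.7% of all genes did so in each direction).

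Cacna2d2, an α2δ subunit strongly expressed in cerebellar Purkinje cells, had the lowest adjusted p of the members in this comparison. It stood at 12.6, 12.5 and 14.1 RPKM in Hoxa5tdTomato, against 7.12, 8.78 and 7.74 RPKM in the creErt2 references and 8.18, 8.36 and 7.26 RPKM in the tdT references. All 3 Hoxa5tdTomato libraries lay above all references, by a log2 fold change of 0.73 ± 0.22 (95% interval 0.25 to 1.198), adjusted p = 0.115. The within-set value was 0.73 ± 0.27, adjusted p = 0.354. Neither fit called it, and without Math1Hoxa5-IRES-GFP replicate 3, which shares the estimate of spread, both did. Over all genes the calls then rose too, from 255 to 720 in the 3-group fit and from 82 to 362 within set 1. Math1Hoxa5-IRES-GFP stood at 11.1, 10.97 and 5.32 RPKM, with replicates 1 and 2 above the 3 tdT references and replicate 3 below them, and a log2 fold change against all 6 references of 0.21 ± 0.23 (adjusted p = 0.691). The Cacna2d2 share of the α2δ level was 25.3% ± 1.85 in Hoxa5tdTomato and 13.9% ± 0.600 in the creErt2 references (SD, n = 3 each), and 14.6% ± 7.28 in Math1Hoxa5-IRES-GFP and 18.7% ± 3.72 in the tdT references.

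Cacna1e was at 44.4, 43.2 and 44.7 RPKM in Hoxa5tdTomato, against 32.5, 33.4 and 33.8 RPKM in the creErt2 references. In Math1Hoxa5-IRES-GFP it was at 57.9, 42.7 and 20.9 RPKM, against 24.1, 38.1 and 30.4 RPKM in the tdT references. Replicates 1 and 2 of Math1Hoxa5-IRES-GFP lay above the references and replicate 3 below them. The log2 fold changes against all 6 references were 0.46 ± 0.22 (adjusted p = 0.343) in Hoxa5tdTomato and 0.34 ± 0.22 (adjusted p = 0.4664) in Math1Hoxa5-IRES-GFP, and without replicate 3 Cacna1e was called higher in Math1Hoxa5-IRES-GFP in both fits. Calls over all genes in that comparison then went from 271 to 336 in the 3-group fit and from 127 to 363 within set 2.

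Cacng2 differed in the other direction, at 6.75, 7.14 and 5.96 RPKM in Hoxa5tdTomato, against 12.3, 9.33 and 9.63 RPKM in the creErt2 references and 10.1, 11.3 and 17.9 RPKM in the tdT references. The log2 fold change was -0.83 ± 0.30, adjusted p = 0.184. Cacng3, another AMPA receptor auxiliary subunit gene of the family, was at 1.11, 0.485 and 0.300 RPKM in Hoxa5tdTomato and at or under 0.187 RPKM in all 6 references, which rests on 5 to 19 counts per library in Hoxa5tdTomato and 0 to 8 in the references.

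**Figure D3:**
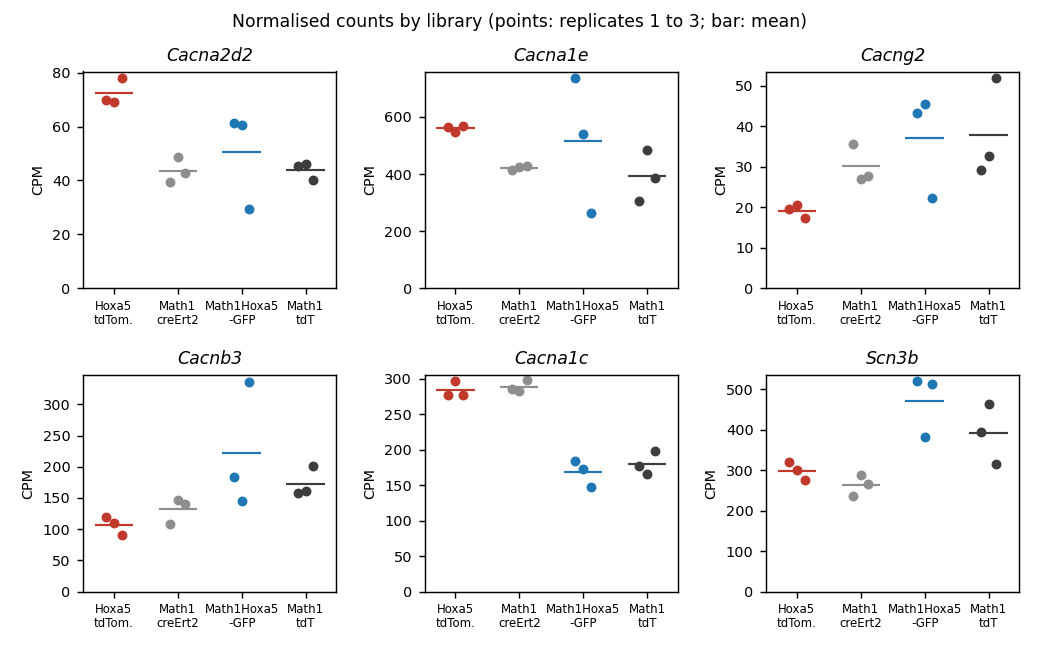
CPM by library for 6 members, with 1 point per replicate and a bar at the mean of each column-name group; axes start at 0. Cacna2d2 and Cacna1e lay higher and Cacng2 lower in Hoxa5tdTomato than in both kinds of reference, whereas Cacna1c lay higher in every set 1 library than in any set 2 library. Scn3b did not overlap between Hoxa5tdTomato and Math1Hoxa5-IRES-GFP or between the kinds of reference, but overlapped across the sets as a whole.

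In Math1Hoxa5-IRES-GFP against Math1tdTomato, 0 of 31 members passed the test in edgeR (1.84% of all genes did, 1.3% higher and 0.543% lower), and 0 within set 2 (0.862% did, 0.536% higher and 0.326% lower). At an unadjusted p under 0.05, 3 members were higher and 1 lower in the 3-group fit, 12.9% of the members beside 16.7% of all genes. DESeq2 called 0 members, where it called 831 of all 14732 genes. No member had all 3 libraries above (3.11% of all genes did) or below (3.27% did) all 6 references, and none separated from the 3 tdT references (6.01% of all genes lay above and 6.46% below). Within set 2, 1 member was higher and 0 lower at an unadjusted p under 0.05 (13.7% of all genes passed). Within set 2 the smallest adjusted p belonged to Cacna2d1, at 41.0, 57.2 and 73.6 RPKM in Math1Hoxa5-IRES-GFP, against 34.1, 28.6 and 41.6 RPKM in the tdT references. The ranges overlap, by replicate 1, and the log2 fold change was 0.72 ± 0.18, adjusted p = 0.0852. Without Math1Hoxa5-IRES-GFP replicate 1 Cacna2d1 was called. In Hoxa5tdTomato it stood at 36.8, 40.5 and 36.1 RPKM, against 46.0, 51.6 and 47.2 RPKM in the creErt2 references, with no overlap and a log2 fold change of -0.35 ± 0.18 (adjusted p = 0.629). The difference between both within-set effects was -1.07 ± 0.26 for Cacna2d1, adjusted p = 0.387, and 0 of 31 members and 0 of all 14732 genes (0% of genes) passed that test in edgeR, with 1 member at an unadjusted p under 0.05 beside 8.02% of all genes.

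**Figure D4:**
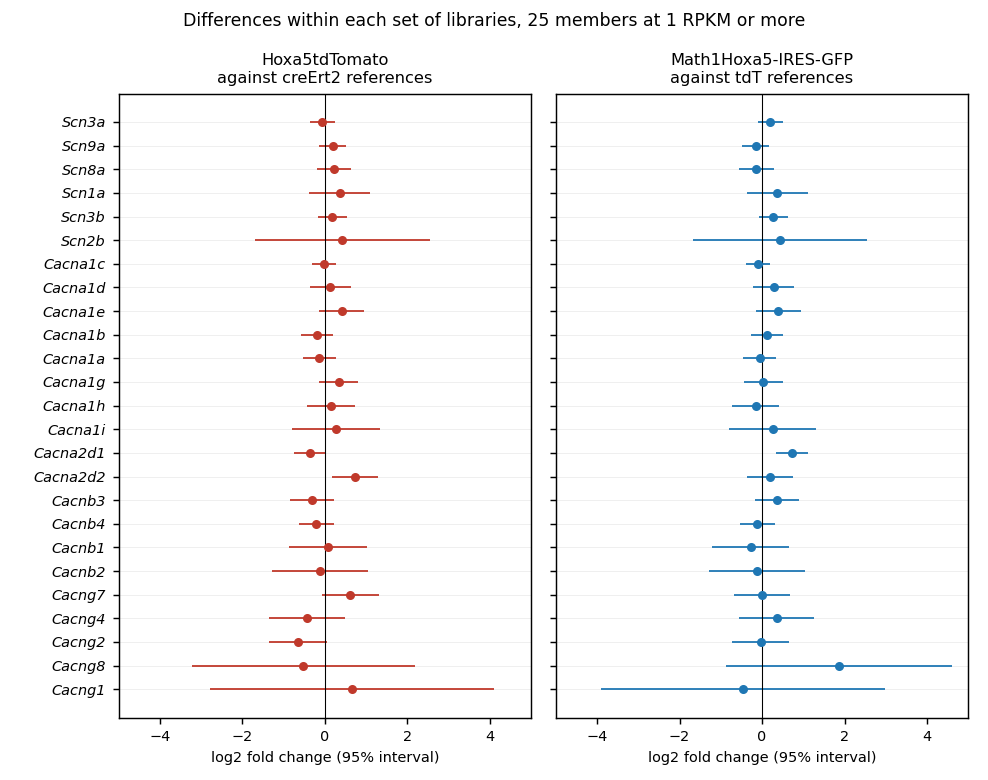
Log2 fold changes with 95% intervals from the 4-group edgeR fit for the 25 members at 1 RPKM or more, with Hoxa5tdTomato against the creErt2 references on the left and Math1Hoxa5-IRES-GFP against the tdT references on the right. No member passed the adjusted threshold on either side, and the widest intervals belong to Cacng1, Cacng8 and Scn2b.

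The intervals show what size of change the libraries could hide, given a spread per gene that all groups share in the fit. Of the 15 members at 10 RPKM or more, the within-set 95% interval lay inside 1 log2 unit in either direction for 12 in Hoxa5tdTomato, all but Cacng2, Cacng4 and Cacng7, and for 13 in Math1Hoxa5-IRES-GFP, all but Cacna2d1 and Cacng4. For Scn9a it ran from -0.15 to 0.52 in Hoxa5tdTomato and from -0.49 to 0.18 in Math1Hoxa5-IRES-GFP, and for Cacna1c from -0.32 to 0.27 and from -0.39 to 0.19. A missed threshold does not show that these genes were alike between groups. The intervals bound how far apart they stood only under the shared spread. Among replicates, the median SD of log2 CPM of the 25 members at 1 RPKM or more was 0.14 in Hoxa5tdTomato and 0.18 in the creErt2 references, and 0.48 in Math1Hoxa5-IRES-GFP and 0.27 in the tdT references. The intervals of Math1Hoxa5-IRES-GFP can therefore be narrower than its own replicates would give.

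Setting Hoxa5tdTomato directly against Math1Hoxa5-IRES-GFP crosses the sets. In the 3-group fit 1 of 31 members passed (3.35% of all genes did, 0.916% higher and 2.43% lower), Cacnb3, a neuronal β subunit and the highest of its class. The DESeq2 Wald test called 3 members, Cacna1c, Cacnb3 and Cacng4, where it called 1484 of all 14732 genes. In the 4-group fit 3 passed (8.08% of all genes did, 2.41% higher and 5.67% lower), with Cacnb3 and Scn3b lower and Cacna1c higher in Hoxa5tdTomato. The creErt2 references and the tdT references, which carry the same label, were therefore set against each other in the same fit, where 2 of 31 members passed (1.34% of all genes did, 0.713% higher and 0.624% lower), Cacna1c higher and Cacng7 lower in the creErt2 references.

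Cacna1c was at 29.4, 31.7 and 29.4 RPKM in Hoxa5tdTomato, against 19.5, 18.4 and 15.7 RPKM in Math1Hoxa5-IRES-GFP. The groups do not overlap, and the 4-group log2 fold change was 0.76 ± 0.14, adjusted p = 0.00457. The references split in the same direction, at 30.4, 30.1 and 31.7 RPKM in those of set 1 and 18.8, 17.6 and 21.2 RPKM in those of set 2, a log2 fold change of 0.68 ± 0.14, adjusted p = 0.0249, a call kept in 4 of 12 fits without 1 library. Within the sets Cacna1c differed by -0.03 ± 0.14 in Hoxa5tdTomato and by -0.10 ± 0.14 in Math1Hoxa5-IRES-GFP, so libraries with the same label differed by nearly as much as the groups did.

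Scn3b was at 57.7, 54.4 and 49.8 RPKM in Hoxa5tdTomato, against 94.0, 68.9 and 92.4 RPKM in Math1Hoxa5-IRES-GFP, with no overlap and a log2 fold change of -0.66 ± 0.16, adjusted p = 0.0232. It was at 42.8, 51.9 and 47.7 RPKM in the creErt2 references, against 71.1, 83.7 and 56.7 RPKM in the tdT references, with no overlap and a log2 fold change of -0.57 ± 0.16, adjusted p = 0.110. In the 3-group fit the adjusted p of Hoxa5tdTomato against Math1Hoxa5-IRES-GFP was 0.0932.

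Cacnb3 was at 34.3, 31.5 and 25.8 RPKM in Hoxa5tdTomato, against 52.7, 41.8 and 96.02 RPKM in Math1Hoxa5-IRES-GFP. The log2 fold change was -1.06 ± 0.27, adjusted p = 0.0449, in the 3-group fit and -1.06 ± 0.25, adjusted p = 0.0198, in the 4-group fit. Replicate 3 of Math1Hoxa5-IRES-GFP was the highest library. Leaving out 1 library at a time, the 3-group call was kept in 3 of 12 fits, those without Math1Hoxa5-IRES-GFP replicate 1, its replicate 2 or creErt2 reference 1. The 4-group calls of Cacnb3 and Scn3b were lost without any 1 of the 3 Hoxa5tdTomato libraries, whereas that of Cacna1c was kept in all 12. The creErt2 references stood at 31.2, 42.2 and 40.4 RPKM and the tdT references at 45.1, 46.2 and 57.5 RPKM, also without overlap, with a log2 fold change of -0.39 ± 0.25, adjusted p = 0.579.

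Cacng7 was at 27.9, 19.2 and 30.01 RPKM in Hoxa5tdTomato, against 21.0, 13.2 and 16.0 RPKM in the creErt2 references, and at 36.2, 35.3 and 62.5 RPKM in Math1Hoxa5-IRES-GFP, against 39.6, 42.1 and 52.4 RPKM in the tdT references. Its largest difference was between the 2 kinds of reference, a log2 fold change of -1.42 ± 0.33, adjusted p = 0.0440, for the creErt2 references against the tdT references. This call was kept in 3 of 12 fits that each leave out 1 library, those without 1 of the 3 Math1Hoxa5-IRES-GFP libraries. Within the sets it differed by 0.62 ± 0.32 (adjusted p = 0.634) in Hoxa5tdTomato and by -0.00 ± 0.32 (adjusted p = 1.00) in Math1Hoxa5-IRES-GFP.

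Over the members at 10 RPKM or more, 11 of 15 had the same sign in the comparison of Hoxa5tdTomato with Math1Hoxa5-IRES-GFP and in that of the creErt2 with the tdT references, which share no library. For Cacna2d1, Cacna1g, Scn8a and Scn9a the signs differed. The share of all tested genes with the same sign was not computed, so this count is not read as a result about the channels. Of all tested members, 2 lay above and 7 below in every Hoxa5tdTomato library against every Math1Hoxa5-IRES-GFP library (14.7% and 12.9% of all genes did so), and 4 above and 3 below in every creErt2 reference against every tdT reference (12.6% and 12% of all genes did so).

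**Figure D5:**
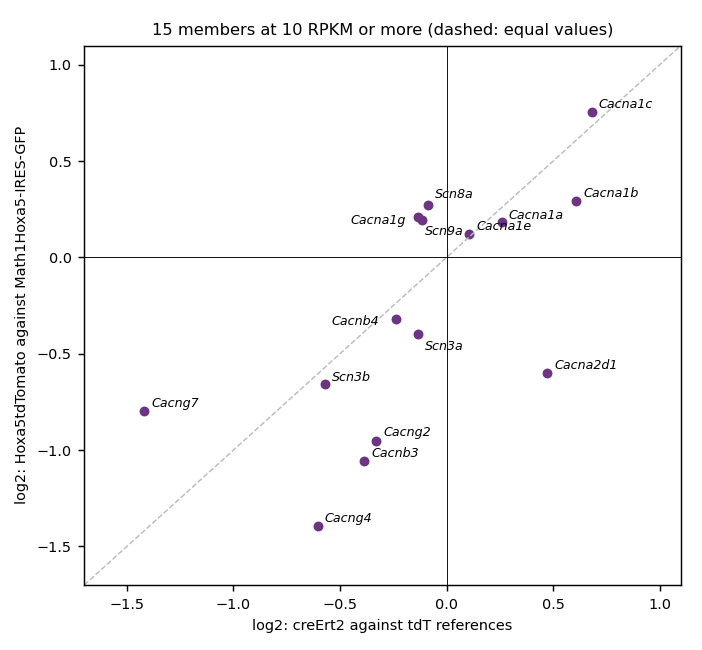
Log2 fold change of Hoxa5tdTomato against Math1Hoxa5-IRES-GFP (vertical) and of the creErt2 against the tdT references (horizontal), both from the 4-group fit, for the 15 members at 10 RPKM or more. Cacna1c and Scn3b lie near the dashed line of equal values, and Cacna2d1 lies on opposite sides of 0 on the axes.

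Genes that work with these channels were followed in lists. Of the sodium channel partners (20 tested), 1 rose and 0 fell in Hoxa5tdTomato and 1 rose and 0 fell in Math1Hoxa5-IRES-GFP against the 6 references. Of all tested genes, 1.73% and 1.84% were called in these comparisons. With so few genes per list, no count is read as a result about its list. Both calls were Ptprz1, a receptor phosphatase that binds sodium channels and is strongly expressed in glial progenitors, with log2 fold changes of 1.58 ± 0.30 (adjusted p = 0.0141) and 1.49 ± 0.30 (adjusted p = 0.0143). These comparisons share the references. The first call was lost without any 1 of the 3 Hoxa5tdTomato libraries (highest adjusted p = 0.0990), and the second without Math1Hoxa5-IRES-GFP replicate 2 (adjusted p = 0.0628). Fits without 1 Hoxa5tdTomato library called only 36 to 52 of all 14732 genes in the first comparison, against 255 with every library. Within the sets the adjusted p was 0.0540 and 0.114, and summed astrocyte and radial glia markers ran from 673 to 1049 CPM in Hoxa5tdTomato and 571 to 937 CPM in Math1Hoxa5-IRES-GFP, against 583 to 978 CPM in the references, and their part was not tested. Scn2a1 was not called in Hoxa5tdTomato, at 33.8, 36.4 and 38.7 RPKM, against 31.5, 28.9 and 29.5 RPKM in the creErt2 references.

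Of the calcium channel partners (22 tested), 0 rose and 1 fell in Hoxa5tdTomato and 1 rose and 0 fell in Math1Hoxa5-IRES-GFP (1.73% and 1.84% of all genes were called). Cachd1, an α2δ-like protein that promotes Cav3 and other calcium currents, fell in Hoxa5tdTomato to 58.0, 70.0 and 72.6 CPM, against 98.5, 103 and 126 CPM in the creErt2 references, with a log2 fold change of -1.007 ± 0.22 against all 6 references (adjusted p = 0.0256, and within set 1 -0.71 ± 0.19, adjusted p = 0.160). That call was lost without tdT reference 1 or tdT reference 3. It was also lost without any 1 of the 3 Hoxa5tdTomato libraries, in fits that called few genes of any kind. Snap25, a SNARE protein of vesicle fusion that binds Cav2 channels, rose in Math1Hoxa5-IRES-GFP by a log2 fold change of 0.60 ± 0.15 (adjusted p = 0.0463, and within set 2 adjusted p = 0.185), a call kept in 2 of 12 fits without 1 library, those without Math1Hoxa5-IRES-GFP replicate 1 or tdT reference 1.

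Of the related cation channels (12 tested), 1 rose in Hoxa5tdTomato, 2 rose in Math1Hoxa5-IRES-GFP and 0 fell in either (1.73% and 1.84% of all genes were called). Unc80, a large subunit of the sodium leak channel NALCN, was at 83.7, 82.8 and 83.2 CPM in Hoxa5tdTomato, against 43.2, 29.0 and 41.9 CPM in the creErt2 references. Its log2 fold change was 1.48 ± 0.30 against all 6 references, adjusted p = 0.0182, and 1.13 ± 0.30 within set 1, adjusted p = 0.151. The call was lost without any 1 of the 3 Hoxa5tdTomato libraries (highest adjusted p = 0.102), in fits that called few genes of any kind. Fam155a, another subunit of the NALCN complex, was called in Math1Hoxa5-IRES-GFP in both fits, with log2 fold changes of 1.03 ± 0.20 (adjusted p = 0.0130) and, within set 2, 1.30 ± 0.21 (adjusted p = 0.00533). Its level there averaged 121 CPM, against 48.9 CPM in the tdT references. Nalcn itself was called between the 2 kinds of reference, higher in the creErt2 references by 0.89 ± 0.17 (adjusted p = 0.0169).

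Of the splicing and transcription regulators of channel genes (11 tested), 0 rose and 0 fell in Hoxa5tdTomato, and 1 rose and 0 fell in Math1Hoxa5-IRES-GFP (1.73% and 1.84% of all genes were called). The called gene was Rbfox1, a neuronal splicing factor whose targets include calcium channel exons, at 300.1, 399 and 489 CPM in Math1Hoxa5-IRES-GFP, against 207 CPM on average in the tdT references. Its log2 fold change was 1.16 ± 0.17 against all 6 references (adjusted p = 0.00159) and 0.94 ± 0.16 within set 2 (adjusted p = 0.00938). The 3-group calls of Rbfox1 and Fam155a were kept in all 12 fits without 1 library. Gene-level counts do not show which exons of a channel gene were used. Across the sets, Hoxa5tdTomato was set against Math1Hoxa5-IRES-GFP in the 3-group fit (0.916% of all genes called higher and 2.43% lower). There 6 partner genes were lower, among them Nedd4, Nedd4l, Cachd1, Snap25 and Rbfox1. The 1 higher was Caln1, at 5.48 CPM on average in Hoxa5tdTomato and 0.336 CPM in Math1Hoxa5-IRES-GFP. All these calls were lost without any 1 Hoxa5tdTomato library, in fits that called 0 or 1 genes in all. The lower genes named here also had lower means in the creErt2 than in the tdT references, at 768 and 1162 CPM for Nedd4. Caln1 was lower there too, at 3.70 and 5.305 CPM, against its direction between the groups.

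Some counts could not be assigned to 1 gene with certainty. Among the transcripts of the sodium α genes, 8.05% of the 50-base stretches of Scn3a, 5.41% of Scn1a and 5.36% of Scn9a also occur in another gene of the family, whereas 27 of 39 members shared none. Exons of 11 members overlap another gene, for all but Cacng8 on the opposite strand, and since the strand setting of the counting is not given in the sources used here, reads of such pairs cannot be told apart. The overlap is 16.0% of the exon bases for Cacnb4 and 1.03% for Cacna2d2.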

How the data were processed

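RNA from 1000 cell equivalents per replicate was amplified to cDNA and sequenced, per the labels' protocols. The authors deposited a table of whole-number counts per gene for the 12 libraries, with a gene width (length in bases) as another column, per the file headers. The submitters' processing notes name bcl2fastq 1.8.4 and the build mm10, and neither a counting tool nor a strand setting is named there.

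From the counts, edgeR 4.0.16 (R 4.3.3) gave TMM-scaled CPM, RPKM by the deposited width, and quasi-likelihood tests with Benjamini-Hochberg adjustment over 14732 of 23079 genes. Genes were kept by edgeR's expression filter at a minimum count of 10. The 3-group fit was the main test, and the 4-group fit, which splits the references by column name, an alternative. DESeq2 1.42.0 was another. Column names rather than sample titles tie references to sets, and 15 genes without a symbol took no part in naming members. Scripts were tested on simulated counts, where for Hoxa5tdTomato against Math1tdTomato the 3-group fit called 17 of 55 genes raised by a log2 of 1 and 27 of 44 raised by a log2 of 2, with 4 of 14532 unchanged genes called. Promoters and positions came from RefSeq tables for GRCm38.p6.

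Values per library are given for members past the threshold in a comparison and for the member of highest level in each class, and partner genes are named where they passed. Scn9a, Cacna2d2, Cacng2 and Cacng3 were added after their values were seen. A few members and partner genes are counted but not reported here by name. The members and the partner lists were chosen with earlier results of these data known. Limits at 0 counts cover counting error only. Intervals of log2 fold changes come from the edgeR fits and, like the p values, measure the spread between these libraries.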

Additional observations from a re-analysis of the deposited data

Results flagged for a closer look

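Among the 6 Math1tdTomato references, 30 members were looked at for a single library far from the others, by the gap to its nearest neighbour over the whole range, and 3 had one. Chance gives about 1 in 20. Cacna1g, a T-type calcium channel pore, stood at 136.5 CPM in creErt2 reference 1 and from 201.4 to 224.1 CPM in the other references. Cacng2, an AMPA receptor auxiliary subunit, stood at 51.74 CPM in tdT reference 3 and from 26.92 to 35.61 CPM in the others. Cacng4, of the same family, stood at 41.62 CPM in that library and from 12.05 to 20.83 CPM in the others.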

How the results depend on the processing

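For 10 named members in 3 comparisons, 562 of 600 log2 fold changes under alternatives kept their direction and side of the threshold, 19 reversed, 8 passed the threshold newly and 11 no longer passed it, and the cause was not tested. The reversed values all lay on changes that were not called. With library size alone they were 0.0331 for Scn3a, 0.0385 for Scn3b and 0.0181 for Cacna2d1 in Hoxa5tdTomato, and -0.0449 for Cacna1g in Math1Hoxa5-IRES-GFP. That scaling moved the median of all genes by 0.16, -0.13 and 0.30 in the 3 comparisons. With within-set references they were 0.18 for Scn3b, -0.027 for Cacna1c and 0.62 for Cacng7 in Hoxa5tdTomato, and -0.0025 for Cacng7 in Math1Hoxa5-IRES-GFP. With the replicate block they were 0.19 for Scn3b, -0.0275 for Cacna1c and 0.62 for Cacng7 in Hoxa5tdTomato, and -0.022 for Cacna1g and -0.0443 for Cacng7 in Math1Hoxa5-IRES-GFP. Leaving out 1 library, Scn3b ran from -0.21 to 0.015 in Hoxa5tdTomato. In Math1Hoxa5-IRES-GFP Scn9a ran from -0.20 to 0.0772, Cacna1e from -0.0138 to 0.65 and Cacna1g from -0.17 to 0.32. In Hoxa5tdTomato against Math1Hoxa5-IRES-GFP, Cacna1e ran from -0.19 to 0.47 and Cacna1g from -0.0208 to 0.45.

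The number of members called was 0 higher and 0 lower in each group against the references, and 0 higher and 1 lower in Hoxa5tdTomato against Math1Hoxa5-IRES-GFP. The last became 0 with DESeq2 size factors and with library size alone. The DESeq2 Wald test called 1 higher in Hoxa5tdTomato against the references, and 1 higher and 2 lower across the groups. The 4-group fit called 1 higher and 2 lower there, and the replicate block 1 higher and 1 lower. Leaving out 1 library gave from 0 to 2 lower there, and from 0 to 1 higher in either group against the references. In the 4-group fit without Math1Hoxa5-IRES-GFP replicate 3, chosen after seeing the data, 1 member was higher in Hoxa5tdTomato and 1 in Math1Hoxa5-IRES-GFP against their references, and 1 was higher and 3 lower across the groups. Over all 14732 genes that fit called 362, 363 and 1362 in these comparisons, against 82, 127 and 1191 with replicate 3.

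Same-numbered libraries correlated in their deviations at 0.0242, 0.0141 and 0.0269 in set 1 and at -0.0387, 0.0209 and 0.0445 in set 2, so the numbers were not taken as pairs. In set 1 each library correlated best with its own number, in set 2 1 of 3 did. Over all genes, Hoxa5tdTomato and Math1Hoxa5-IRES-GFP against the references and Hoxa5tdTomato against Math1Hoxa5-IRES-GFP had 255, 271 and 493 calls, in that order. The counts were 72, 77 and 845 with the replicate block, 82, 127 and 1191 in the 4-group fit, and 601, 831 and 1484 with DESeq2. Without 1 Hoxa5tdTomato library the calls of the last comparison fell to 0 or 1, so those fits could hardly call any gene there. Calls in Hoxa5tdTomato against the references fell to 36, 36 and 52. The order of the members by level was the same with library size alone and with TPM. Of the members under 1 RPKM, Cacna1f had a log2 fold change of 1.69 in Hoxa5tdTomato against all references (95% interval 0.16 to 3.21, adjusted p = 0.281) and of 2.06 against the creErt2 references (0.12 to 3.99, adjusted p = 0.520), which miss the adjusted threshold.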
